A study of Mus musculus with 10 samples.

Results

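The effect of Fntb loss that central and effector regulatory T (Treg) cells have in common was estimated from all 10 of the 10 ATAC-seq libraries of the series. ATAC-seq counts the cuts of a transposase in open DNA, so a higher count in a region means more accessible chromatin. The 4 libraries labelled FntbKO, 2 of central Treg (cTreg) and 2 of effector Treg (eTreg) cells, were set against the 6 wild-type (WT) libraries, 3 of each subset, in a model with 1 term for subset and 1 for genotype. All cells were sorted from mixed bone marrow chimeras, mice whose blood cells come from more than 1 marrow donor, and were taken from spleen and lymph nodes. The labels give neither the strain and age of donors and hosts, nor the Fntb allele and the Cre driver, nor which libraries share an animal. They also do not say which cells the hosts kept or how cTreg and eTreg cells were gated, so the p-values measure the spread between these libraries, which may in part be technical. Of 77076 regions in the deposited count table, 76216 passed the filter on low counts and were tested. Calls were made where the p of edgeR's quasi-likelihood test, adjusted over all of them by Benjamini-Hochberg, was under 0.05. A region was "gained by pooling" when the additive model called it and neither cTreg nor eTreg cells alone did, in a model with 1 mean per group.

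Treg cells are CD4 T cells that restrain immune responses and depend on the transcription factor Foxp3. Resting central cells recirculate through lymphoid organs, and antigen receptor signals drive part of them to become effector cells with receptors and cytokines for work in tissues. Farnesyltransferase, whose β subunit is encoded by Fntb, attaches a lipid to the C terminus of proteins such as RAS, RHEB and nuclear lamins, which anchors them in membranes.

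The sequences before 6 start sites covered by a called region are shown, a selection from the named genes. Fntb is the targeted gene. Cfap20dc had the start site with the largest fall named here, Srgap3 and Nap1l3 were falls gained by pooling, Nt5e encodes a Treg ectoenzyme, and Bbc3 had a rise gained by pooling. Each line gives the 250 bases before the start site, 5′ to 3′ on the gene's strand, from RefSeq on GRCm38.p6. Capitals mark matches on either strand to a GC box (GGGCGG) or a CCAAT box (CCAAT).
Fntb, chr12:76837217-76837466, plus strand: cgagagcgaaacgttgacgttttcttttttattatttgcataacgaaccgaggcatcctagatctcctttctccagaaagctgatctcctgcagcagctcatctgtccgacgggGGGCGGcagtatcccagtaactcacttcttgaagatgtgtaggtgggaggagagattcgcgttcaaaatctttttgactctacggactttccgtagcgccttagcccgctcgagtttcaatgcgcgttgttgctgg
Cfap20dc, chr14:8666291-8666540, minus strand: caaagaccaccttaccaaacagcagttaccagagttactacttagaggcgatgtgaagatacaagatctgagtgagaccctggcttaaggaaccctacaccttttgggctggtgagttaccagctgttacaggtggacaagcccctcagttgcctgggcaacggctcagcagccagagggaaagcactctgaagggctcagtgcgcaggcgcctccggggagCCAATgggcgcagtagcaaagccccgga
Srgap3, chr6:112947267-112947516, minus strand: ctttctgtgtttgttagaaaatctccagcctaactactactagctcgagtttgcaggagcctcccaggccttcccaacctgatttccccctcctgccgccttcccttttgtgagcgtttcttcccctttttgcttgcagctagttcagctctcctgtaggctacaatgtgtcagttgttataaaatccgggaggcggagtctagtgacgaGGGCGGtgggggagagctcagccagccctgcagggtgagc
Nap1l3, chrX:122397386-122397635, minus strand: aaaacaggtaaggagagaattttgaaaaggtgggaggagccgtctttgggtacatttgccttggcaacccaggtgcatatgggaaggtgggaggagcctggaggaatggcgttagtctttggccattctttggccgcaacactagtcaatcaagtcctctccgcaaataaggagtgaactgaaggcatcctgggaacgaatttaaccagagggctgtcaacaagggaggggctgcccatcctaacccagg
Nt5e, chr9:88327359-88327608, plus strand: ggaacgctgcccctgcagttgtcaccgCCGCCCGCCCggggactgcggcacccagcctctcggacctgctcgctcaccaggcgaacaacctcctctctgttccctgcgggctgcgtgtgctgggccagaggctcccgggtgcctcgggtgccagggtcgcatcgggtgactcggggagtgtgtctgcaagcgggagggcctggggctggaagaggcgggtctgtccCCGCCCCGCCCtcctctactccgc
Bbc3, chr7:16310011-16310260, plus strand: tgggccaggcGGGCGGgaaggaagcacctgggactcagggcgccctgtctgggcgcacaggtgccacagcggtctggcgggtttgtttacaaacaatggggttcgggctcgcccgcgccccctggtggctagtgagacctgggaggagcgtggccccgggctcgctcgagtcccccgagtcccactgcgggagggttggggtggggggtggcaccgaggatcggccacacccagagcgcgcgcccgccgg
Counted from the start site, the GC box of Fntb lay at -136 and that of Srgap3 at -40, and the CCAAT box of Cfap20dc at -28. Windows of 250 bases before to 50 after a start site held a GC box in 70.1% of the 134 starts covered by a region called higher and in 72.8% of the 254 covered by a region called lower, against 69.4% of 10470 covered by any tested region. A CCAAT box was in 48.5%, 38.2% and 38.8% of these windows. The AP-1 motif TGANTCA was in 2.24%, 5.51% and 4.27%, the CRE motif TGACGTCA in 5.97%, 2.76% and 3.60%, and the ETS core CCGGAAG in 13.4%, 20.5% and 20.1%. Over all 21262 start sites the shares were 46.2% for the GC box, 38.2% for CCAAT, 6.99% for AP-1, 2.23% for CRE and 11.6% for the ETS core. The motifs were chosen after the files had been seen, overlap of 1 motif with another was allowed, and no share was tested.

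Loss of Fntb was accompanied by changes in accessibility in both directions, and most passed the threshold only when the subsets were analysed together. The additive model called 3153 regions, 4.14% of those tested. Of these, 1477 (1.94%) were higher and 1676 (2.2%) lower in FntbKO cells. This balance turned under limma-voom (1732 higher, 1438 lower), also with correlated libraries (1182 and 972), without FntbKO cTreg 1 (890 and 859), and without it and WT cTreg 2 (901 and 761). Fitted alone, FntbKO against WT in cTreg cells called 433 regions (0.568%) and in eTreg cells 267 (0.35%), with 96 called in both and 604 in either. Pooling gained 2598 regions (3.41%), of which 1238 (1.62%) were higher and 1360 (1.78%) lower. An unadjusted p under 0.05 in both subsets was reached by 1849 of the gained regions (71.2%) and by 2678 of all tested regions (3.51%). The other 749 gained regions reached it in 1 subset. Gained regions were chosen by the common effect in the same counts, which favours such shares, so these are a description. The other 555 called regions were already called in 1 subset or both. Conversely, 49 regions called in a single subset were not called in the additive model.

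The median fall was larger than the median rise. The median log2 fold change was -0.85 among called falls and 0.68 among called rises, and -0.81 and 0.66 among the gained ones. Past a log2 change of 1 there were 658 called falls and 333 called rises, and past 2 there were 140 and 25. Over all tested regions there were 2273 falls and 1037 rises past 1, and 215 and 43 past 2. Large falls were thus the more frequent among all tested regions as well. The median SE of a called region was 0.18 in the additive model, against 0.26 in cTreg and 0.26 in eTreg cells alone. In the additive model it was 0.20 for called falls and 0.16 for called rises. FntbKO libraries lay outside the WT range on the same side in both subsets at 2556 of the called regions and at 7270 of all tested (9.54%, with 4.75% higher and 4.79% lower). All 4 lay beyond all 6 WT libraries at 1474 of the called and 3117 of all tested regions (4.09%). Calls and separation come from the same counts, so these numbers are a description. At the threshold, regions of Nfic (log2 fold change -0.54) and Elac2 (-1.5) lay just inside at an adjusted p of 0.04996, and regions of Pttg1 (-0.33) and Rfx2 (0.82) just outside at 0.05002.

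The single subsets use separate libraries, but these may share animals, which could favour like signs. The estimates of the 2 subsets had the same sign at 64.7% of all tested regions. Of the 433 regions called in cTreg cells, 421 (97.2%) had the same sign in eTreg cells and 309 had it with an unadjusted p under 0.05 there, which 6.43% of all regions reached there as rises and 5.82% as falls (12.2% in all). Of the 267 called in eTreg cells, 264 (98.9%) had the same sign in cTreg cells and 209 an unadjusted p under 0.05, against 5.7% of all regions as rises and 6.73% as falls (12.4% in all). The test of the difference between the subsets' genotype effects called 0 regions with edgeR, and also 0 with DESeq2 and limma-voom. At an unadjusted p under 0.05 it had 3099 regions (4.07%) with edgeR, 2133 with DESeq2 and 3286 with limma-voom, 3704 with edgeR and a block on the replicate number, and 4589 in limma-voom with correlated libraries. Among the 3153 called regions 145 were below that unadjusted level (4.60%). These were 15 of the 2598 gained regions (0.577%) and 130 of the 555 called also in a single subset (23.4%). All 49 regions lost by pooling were among the 3099. Each of these sets was defined by calls on the same counts, which favours such shares, so they are a description. Missing this threshold does not show that the subsets responded alike.

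**Figure D1:**
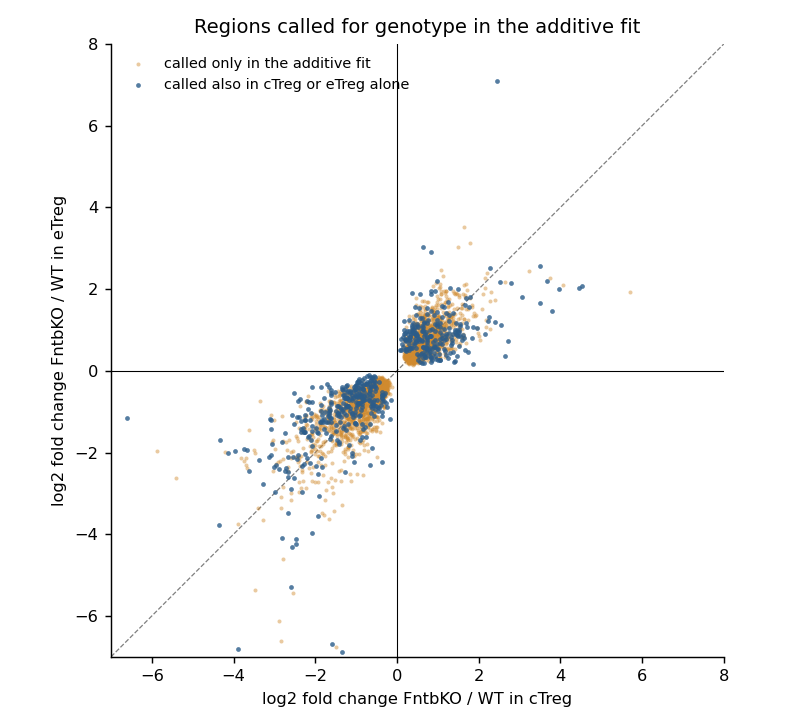
Log2 fold change of FntbKO over WT in cTreg (x axis) and eTreg cells (y axis) for the 3153 regions called in the additive model, 1 point a region, with the 2598 gained ones in orange and the 555 others in blue. The points lie along the dashed line of equal change, and the falls (1676) reach farther from 0 than the rises (1477). The regions were chosen by the effect common to both subsets, which favours like changes, so the alignment is a description. The sign was the same in both subsets at 100% of them and at 64.7% of all tested regions.

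Each FntbKO library showed the shift. At the gained rises the median difference from the WT mean of the same subset was 0.60 and 0.58 on the log2 scale in FntbKO cTreg 1 and 2, and 0.63 and 0.64 in FntbKO eTreg 1 and 2. At the gained falls it was -0.88, -0.60, -0.73 and -0.64 in the same order. The 6 WT libraries lay between -0.11 and 0.16 at these regions. FntbKO cTreg 1 had the largest fall, and WT cTreg 2 and WT eTreg 3 deviated from the other WT libraries of their subset in the direction away from FntbKO. These regions were chosen for this difference, so the values are a description.

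**Figure D2:**
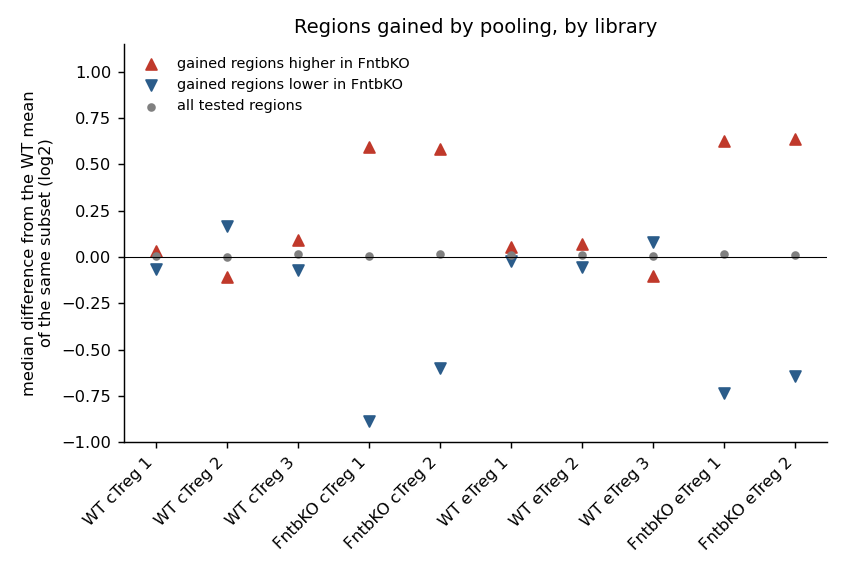
Median difference from the WT mean of the same subset (log2, y axis) in each of the 10 libraries, for gained regions higher (red) or lower (blue) in FntbKO and for all tested regions (grey). The 4 FntbKO libraries lie between 0.58 and 0.64 for gained rises and between -0.88 and -0.60 for gained falls.

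The number of called regions depended on single libraries. The additive count fell from 3153 to 1749 or 1985 when FntbKO cTreg 1 or 2 was left out, to 1632 or 1595 when FntbKO eTreg 1 or 2 was, and to 1828 when WT eTreg 3 was. Called regions that held without each of the 10 libraries in turn numbered 854 (27.1%), of which 443 were gained and 411 called also in a single subset. All 3153 kept their direction under each alternative that tested them, and regions that an alternative left out were not counted against it. The filter at a mean count of at least 50, for example, tested 34911 regions. If libraries of 1 genotype and number came from the same animal, they would not be independent. WT and FntbKO libraries could also share a host, since the chimeras were mixed, and the labels do not say whether they did. With libraries of 1 genotype and number treated as correlated in limma-voom, 2154 regions were called and 1599 gained. With the counts of such libraries summed into 3 WT and 2 FntbKO samples, edgeR called 2084.

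Library totals ran from 5058328 to 15328775 counts. 4 library measures were compared by genotype, namely total counts and the shares from chromosome X, from within 1 kb of gene ends and from the 1% of regions with most counts, and none passed (exact permutation test within subset, two-sided, 100 arrangements, adjusted p = 0.7 each). Defining markers of other cell types were also examined, in CPM, counts scaled by TMM to a common library size, summed over each list's regions. In bulk samples fewer cells of a type and less accessibility per cell cannot be told apart. The sum over 8 naive CD4 T cell markers was 1788 to 1927 in WT cTreg and 1979 to 2062 in FntbKO cTreg cells, and 1507 to 1690 in WT and 1808 to 1824 in FntbKO eTreg cells. The sum over 7 Treg markers was 1294 to 1467 in WT and 1472 to 1509 in FntbKO cTreg cells, and 1404 to 1436 and 1492 to 1525 in eTreg cells. For 5 B cell markers it was 125.8 to 139.0 and 90.4 to 107.3 in cTreg, and 130.5 to 141.1 and 106.6 to 128.1 in eTreg cells, with no region for, among others, Cd79b and Ms4a1. For 6 myeloid markers it was 301.3 to 360.6 and 272.7 to 297.4 in cTreg, and 367.9 to 397.0 and 335.0 to 348.1 in eTreg cells, with no region for Csf1r, Fcgr3 and Lyz2. FntbKO libraries were thus above WT for these sums of naive and Treg markers and below for those of B cell and myeloid markers in both subsets, without overlap. Of all single tested regions, 9.54% were separate on the same side in both subsets. Some markers went against their sum by median log2 change, namely Cd79a (0.39), Spi1 (0.03), the naive marker Igfbp4 (-0.03) and the Treg marker Cd4 (-0.01). The part of these shifts in the results below was not tested. The sums for CD8 T or NK, dendritic and erythroid markers overlapped between genotypes in at least 1 subset, with no region for Gzma, Xcr1, Hba-a1 and Hbb-bs.

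The Fntb locus differed between the genotypes in both subsets and not uniformly over its 13 tested regions. The region over its start (chromosome 12, 76837192 to 76837915) had 36.9, 29.2 and 33.1 CPM in WT cTreg, 29.4, 30.3 and 30.2 in WT eTreg, 13.1 and 11.2 in FntbKO cTreg and 11.6 and 7.48 in FntbKO eTreg cells. All 4 FntbKO libraries lay below all 6 WT libraries, with a common log2 fold change of -1.57 (SE 0.13, adjusted p = 8.76e-09). A region inside the gene (76844676 to 76845058) fell by 1.94 (SE 0.25, adjusted p = 2.27e-05). Both calls held without each library in turn. Another region inside it, at 76874004 to 76874477, was called higher by 0.52 (SE 0.15, adjusted p = 0.0497). The genotypes were separate there in eTreg cells, with 9.64, 10.8 and 11.5 against 20.4 and 19.4 CPM, and overlapped in cTreg cells, with 13.7, 18.8 and 20.6 against 17.1 and 22.3. This call was lost without any of 7 libraries (adjusted p up to 0.171). The other 10 had log2 changes between -0.10 and 0.60 and were not called. The labels do not say which part of the gene was deleted.

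Beside Fntb, a region of Churc1, a zinc finger gene whose region lies 58.3 kb away (chromosome 12, 76778486 to 76779123), fell by 1.97 (SE 0.22, adjusted p = 2.06e-06). It had 15.1, 10.3 and 10.8 CPM in WT cTreg, 9.88, 8.96 and 9.84 in WT eTreg, 1.91 and 3.50 in FntbKO cTreg and 2.80 and 2.56 in FntbKO eTreg cells. From 1 to 100 kb from Fntb 1 of 15 regions was called, from 100 to 1000 kb 7 of 93 (7.53%), 6 of them lower, and from 1000 to 5000 kb 15 of 384 (3.91%). None of the 3 regions of Foxp3 was called (log2 changes 0.15, 0.38 and 0.21). The strongest of them had 33.9, 26.0 and 27.6 CPM in WT cTreg, 29.3 and 35.1 in FntbKO cTreg, 29.9, 31.1 and 28.3 in WT eTreg and 31.1 and 34.7 in FntbKO eTreg cells.

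The largest falls among well covered regions with separate genotypes in both subsets removed most of the accessibility of the region. At Trim12a, of the TRIM5 family of intracellular antiviral proteins (chromosome 7, 104314661 to 104315361), CPM were 15.8, 14.5 and 16.5 in WT cTreg and 15.2, 14.4 and 19.9 in WT eTreg cells, against 1.37 and 3.11 in FntbKO cTreg and 2.00 and 3.15 in FntbKO eTreg cells, a log2 fold change of -2.64 (SE 0.21, adjusted p = 4.48e-09). Its neighbour Trim5 had a region (chromosome 7, 104291329 to 104291961) that fell by 2.61 (SE 0.23, adjusted p = 2.65e-07). A region inside Ptprm, a receptor tyrosine phosphatase (chromosome 17, 67193881 to 67194472), fell by 2.68 (SE 0.26, adjusted p = 2.65e-07), from 13, 9.98 and 9.51 to 1.09 and 1.69 CPM in cTreg and from 7.71, 5.48 and 8.82 to 1 and 1.57 in eTreg cells. A region 70.1 kb from Slc39a11, a zinc transporter (chromosome 11, 113173931 to 113174741), fell by 2.17 (SE 0.12, adjusted p = 1.16e-10), from 75.3, 72.3 and 68.8 to 10.4 and 19.6 CPM in cTreg and from 51.9, 58.5 and 58.4 to 10.4 and 14.4 in eTreg cells. In each of these regions all 4 FntbKO libraries lay below all 6 WT libraries.

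The start of Cfap20dc (chromosome 14, 8665983 to 8666506) fell by 1.93 (SE 0.24, adjusted p = 1.91e-05). Regions of Slco3a1, an organic anion transporter (-2.29), Col6a4, a collagen chain (-1.78), Adamts10, an extracellular protease (-1.75), and Art2b, a cell surface ADP-ribosyltransferase of T cells (-1.69), completed the 12 largest falls with Churc1 and with 2 gained regions in Rbms3 and Mtus2. The 10 of the 12 that single subsets also called held without each library in turn.

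Rises were smaller. A region 74.8 kb from Fggy, a carbohydrate kinase (chromosome 4, 95481918 to 95482681), rose by 1.39 (SE 0.13, adjusted p = 2.65e-07). It had 12.8, 21.0 and 20.4 CPM in WT cTreg, 46.0 and 47.7 in FntbKO cTreg, 13.3, 18.8 and 10.9 in WT eTreg and 38.5 and 39.4 in FntbKO eTreg cells, without overlap. A region inside Thrb, the thyroid hormone receptor β (chromosome 14, 17923082 to 17923556), rose by 1.49 (SE 0.20, adjusted p = 8.16e-05). Its CPM were 5.86, 5.16 and 8.77 in WT cTreg and 30.1 and 19.1 in FntbKO cTreg, against 6.02, 6.97 and 3.39 in WT eTreg and 11.6 and 12 in FntbKO eTreg cells. Regions of Gm11213 (1.67), Mnd1, a factor of meiotic recombination (1.65), Zfr, an RNA binding zinc finger protein (1.37), Fryl (1.33), Hacl1, a peroxisomal lyase (1.33), Anln, the actin binding protein anillin (1.33), and Sik1, a salt-inducible kinase (1.30), also rose. These 9 calls held without each library in turn.

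**Figure D3:**
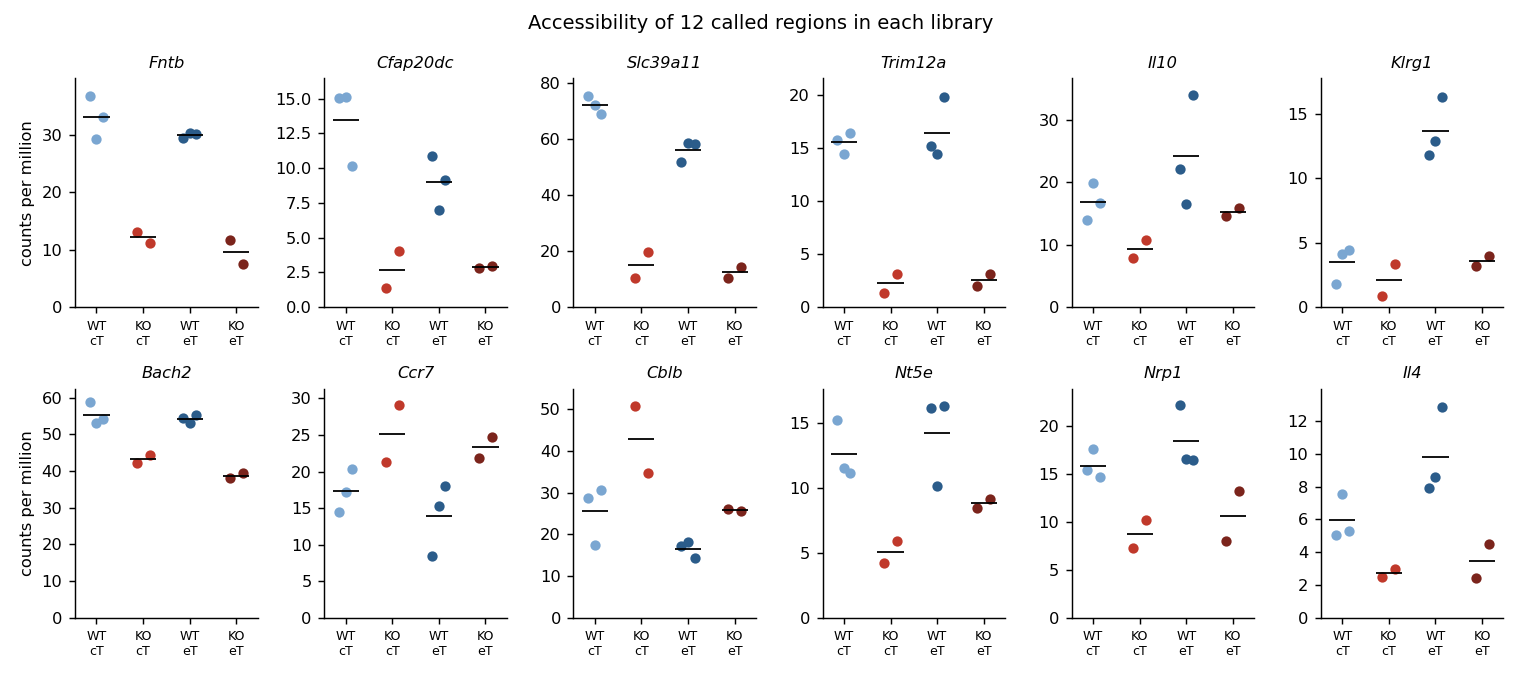
Accessibility (TMM-scaled CPM, y axis) of 12 called regions, each the smallest adjusted p of its gene among those named, in the 3 WT and 2 FntbKO (KO) libraries of cTreg (cT) and eTreg (eT) cells, with 1 point a library and the group mean as a line. The Fntb start falls from 29.2 or more to 13.1 or less in all libraries, while the Klrg1 region separates the genotypes only in eTreg cells, where it falls from 11.8 or more to 3.94 or less.

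Regions gained by pooling had changes in each subset that did not pass alone. The largest gained rise among regions of at least median CPM with separate genotypes in both subsets lay 79.3 kb from Rngtt, the mRNA capping enzyme (chromosome 4, 33581922 to 33582353), and was 2.06 (SE 0.44, adjusted p = 0.0338), with 6.14, 1.72 and 1.27 against 18.6 and 13.7 CPM in cTreg and 7.47, 4.78 and 1.36 against 16.8 and 14.9 in eTreg cells. Alone, cTreg gave 2.41 (adjusted p = 0.190) and eTreg 1.74 (adjusted p = 0.321). Its call was lost without any of 6 libraries (adjusted p up to 0.0878) and with summed counts. More stable was a region inside Rtkn2, a rhotekin family protein (chromosome 10, 68009212 to 68009662), which rose by 1.47 (SE 0.31, adjusted p = 0.00879), with 4.75, 2.41 and 4.01 against 10.9 and 12.5 CPM in cTreg and 3.13, 4.78 and 0.339 against 7.81 and 6.69 in eTreg cells. Regions at Lcn5 (1.23), Chrd, an antagonist of bone morphogenetic proteins (1.17), Atxn7, a subunit of the SAGA coactivator (1.17), Smad4, the common mediator of TGF-β signals (1.11), and Nedd4l, a ubiquitin ligase (1.10), also held without each library. Those inside App, the amyloid precursor (1.48), and Prkce, a protein kinase C (1.17), were lost without any of 5 and 6 libraries (adjusted p up to 0.0641 and 0.0979), and that inside Mkln1 (1.27) without FntbKO eTreg 1 or FntbKO cTreg 2 (adjusted p up to 0.0768).

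Among gained falls, the region over the start of Nap1l3, a nucleosome assembly protein (chromosome X, 122396796 to 122397932), fell by 1.33 (SE 0.22, adjusted p = 0.000914). It had 7.54, 14.6 and 8.13 against 2.46 and 5.45 CPM in cTreg and 27.8, 18.5 and 18.2 against 6.41 and 9.25 in eTreg cells, separate within each subset although WT cTreg and FntbKO eTreg libraries overlapped. The start of Srgap3, a GTPase activator (chromosome 6, 112946881 to 112947474), fell by 1.46 (SE 0.31, adjusted p = 0.00748), with 9.77, 11.5 and 3.80 against 1.5 and 3.11 CPM in cTreg and 7.47, 7.57 and 5.26 against 1.60 and 4.03 in eTreg cells. Mtus2, a microtubule protein (-2.21), Chrng (-1.55), Foxl1, a forkhead factor (-1.48), Adamts18 (-1.28) and Arpc5, a subunit of the ARP2/3 actin complex (-1.28), held without each library as well. Regions of Rbms3 (-2.22) and the ephrin receptor gene Epha2 (-1.43) were lost without any of 3 and 4 libraries (adjusted p up to 0.0585 and 0.125), and that of the DNA sensor gene Aim2 (-1.44) without FntbKO eTreg 2 (adjusted p = 0.0563).

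By gene, 2130 of the 15364 genes with a tested region had a called one, against 467 with a region called in a single subset. Pooling gained 1692 genes, 754 with rises only, 884 with falls only and 54 with both, and 29 were lost. Most gained genes (1400) had 1 called region, 63 had at least 3 and 21 at least 4. The genes in the rest of this paragraph were chosen after their values were seen. With rises only, 4 regions each were called at Fyn, a Src family kinase of the T cell receptor (TCR) pathway (0.51 to 0.85), Ezr, the membrane linker ezrin (0.33 to 0.89), Mdfic (0.41 to 0.60) and Rngtt (median 0.90). With falls only, 6 of 14 were called at Stk32c (-1.75 to -0.48), 5 of 42 at Itpr2, a calcium channel of the endoplasmic reticulum (-0.92 to -0.31), and 4 each at Prkca (-1.04 to -0.48) and Prkch (-2.56 to -0.43), protein kinases C. Tnfaip3, the NF-κB inhibitor A20, had 3 rises and 1 fall. Large genes have more regions, and so more chances of a call.

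In the central Treg list more regions were called higher than lower. Of 473 regions of 18 measured genes, 16 were higher and 7 lower (4.86% called against 4.14% of all regions), 21 of them gained, and the median change of the list was 0.18 (71.7% above 0) against -0.001 for all regions. Rises were called at Bach2, a repressor that restrains effector differentiation (5), Ccr7, the homing receptor for lymph nodes (3), Nsg2 (3), Foxp1 (2), Lef1, a TCF family factor, Bcl2, the survival protein, and Il7r, the IL-7 receptor (1 each). Falls were called at Bach2 and Cd55 (2 each), Lef1, Dapl1 and Itgb7 (1 each). The naive CD4 T cell list, which shares genes with it, had 8 rises and 2 falls among 132 regions, so the rise of its summed CPM given above moves with this group. Of the 18 genes 5 had rises only, 3 falls only, 2 both and 8 no call. The balance of calls did not hold in every alternative, with 3 higher and 6 lower without FntbKO eTreg 2 and 3 and 2 without FntbKO eTreg 1, while the list median stayed above 0 (0.15 to 0.21). Over the alternatives the rises ran from 3 to 28 and the falls from 2 to 8, and 3 of its 23 calls held without each library.

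At Ccr7 the region 13 kb from the gene (chromosome 11, 99168052 to 99168478) had 14.5, 17.2 and 20.3 against 21.3 and 29.0 CPM in cTreg and 8.43, 15.3 and 18 against 21.8 and 24.8 in eTreg cells, so all FntbKO libraries exceeded all WT libraries. The log2 change was 0.65 (SE 0.16, adjusted p = 0.0173), lost without any of 3 FntbKO libraries (adjusted p up to 0.0839). A region 36.6 kb from Nsg2 (chromosome 11, 32095833 to 32096242) rose by 1.09 (SE 0.21, adjusted p = 0.00293) and held without each library, with 4.75, 6.88 and 6.34 against 10.5 and 11.8 CPM in cTreg and 3.13, 4.78 and 1.87 against 7.61 and 8.95 in eTreg cells. Bach2 had called falls outside the gene and called rises inside it. A region 73.1 kb outside the gene (chromosome 4, 32163946 to 32165280) fell by 0.41 (SE 0.08, adjusted p = 0.00221), from 58.9, 53.0 and 54.2 to 42.1 and 44.5 CPM in cTreg and from 54.4, 53.0 and 55.3 to 38.1 and 39.5 in eTreg cells, and held without each library. Another, 58.3 kb outside, fell by 0.62 (adjusted p = 0.017), a call lost without FntbKO cTreg 1 or FntbKO eTreg 1 (adjusted p up to 0.0745). The 5 called rises, inside the gene, were between 0.33 and 0.71 with adjusted p from 0.0106 to 0.0434, and each was lost without at least 1 library, that at 32343690 to 32344514 (0.42) only without FntbKO eTreg 2 (adjusted p = 0.0721).

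In the effector Treg list more regions were called lower than higher. Of 375 regions of 32 genes, 16 were lower and 4 higher (5.33% called, against 4.14% of all regions), 16 of the 20 gained, with a list median of -0.09 (40.3% above 0). Of the 32 genes 7 had falls only, 4 rises only and 21 no call. Falls were called at Il10, the suppressive cytokine (4 of 12), Klrg1, an inhibitory receptor of effector lymphocytes (4 of 11), Maf, a factor that drives Il10 (3 of 11), Tigit, an inhibitory receptor (2), Ctla4, the inhibitory costimulatory receptor, Ikzf3 and the chemokine receptor gene Ccr2 (1 each). Rises were called at Prdm1, Tnfrsf9, Gata3 and Il2rb. Over the alternatives the falls ran from 3 to 21 and the rises from 2 to 8, and 4 of the 20 calls held without each library. The median stayed below 0 under each alternative (-0.12 to -0.04).

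A region 13 kb from Il10 (chromosome 1, 131037994 to 131039190) had 14, 20.0 and 16.7 against 7.93 and 10.7 CPM in cTreg and 22.2, 16.5 and 33.9 against 14.6 and 15.8 in eTreg cells. The fall was 0.73 (SE 0.17, adjusted p = 0.0125) and held without each library, but had an adjusted p of 0.065 with correlated libraries. The other 3 Il10 regions fell by 0.37 to 1.07 and were lost without 1, 4 and 8 libraries. A Tigit region (chromosome 16, 43661552 to 43661888) fell by 0.93 (SE 0.21, adjusted p = 0.0101), from 7.68, 8.26 and 8.45 to 1.64 and 5.19 CPM in cTreg and from 20.6, 13.5 and 21.2 to 9.62 and 11.6 in eTreg cells, without overlap within a subset. The Maf region 35.7 kb away (chromosome 8, 115742593 to 115743118) fell by 0.70 (SE 0.16, adjusted p = 0.0115). It had 8.66, 11.4 and 10.1 against 3.83 and 7.52 CPM in cTreg and 22.9, 23.4 and 31.7 against 15.6 and 16.9 in eTreg cells. Both held without each library. The 4 Klrg1 falls (-0.68 to -1.30, adjusted p 0.0232 to 0.049) overlapped between genotypes in at least 1 subset and were each lost without 4 or more libraries (adjusted p up to 0.172). At Prdm1, the gene of Blimp-1, a region 9.42 kb away rose by 1.26 (SE 0.27, adjusted p = 0.00611) and held.

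The 12 Treg identity genes had 10 falls and 3 rises among 214 regions (6.07%, against 4.14% of all regions). Of these 13 calls 10 were gained and 2 held without each library. The list median was 0.01 and changed sign with the setting (-0.01 to 0.03). Of the 12 genes 4 had falls only, 1 rises only, 1 both and 6 no call, Foxp3 and Il2ra among them. Falls were called at Nt5e, the ectoenzyme CD73 (4 of 15), Nrp1, a semaphorin receptor of thymic Treg cells (3 of 48), Ikzf2, the factor Helios, Ctla4 and Lrrc32, a TGF-β anchoring protein (1 each). Rises were called at Nrp1 (2) and Izumo1r (1). A region inside Nt5e (chromosome 9, 88332418 to 88332858) had 15.2, 11.5 and 11.1 against 4.24 and 5.90 CPM in cTreg and 16.1, 10.2 and 16.3 against 8.41 and 9.15 in eTreg cells, a fall of 0.97 (SE 0.19, adjusted p = 0.00293) without overlap. The region over its start, whose sequence stands above, fell by 0.40 (SE 0.11, adjusted p = 0.0388), overlapped in eTreg cells and was lost without any of 7 libraries (adjusted p up to 0.15). A region 12.1 kb beyond Nrp1 (chromosome 8, 128517587 to 128518110) fell by 0.79 (SE 0.16, adjusted p = 0.00405), from 15.4, 17.5 and 14.7 to 7.25 and 10.2 CPM in cTreg and from 22.2, 16.5 and 16.5 to 8.01 and 13.2 in eTreg cells. The Nt5e region inside the gene and this one held without each library. The Ikzf2 region fell by 1.27 (adjusted p = 0.00591, 0.0548 without FntbKO eTreg 2) and the Ctla4 region by 1.28 (adjusted p = 0.012, 0.0755 without FntbKO cTreg 2).

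TCR signalling components had 14 rises and 4 falls among 372 regions (4.84%, against 4.14% of all regions). Of the 18 calls 17 were gained, and the list median was 0.10. Of the 23 genes 12 had no call. The rises were at Cblb, a ubiquitin ligase that limits TCR signals (6 of 36), Cd3d (2 of 3) and Cd3g, chains of the CD3 complex, and at genes that include Lcp2, Prkcq, Cd28 and Nfkb1. The falls included Nfatc2 and Ptpn22. A Cblb region (chromosome 16, 52142836 to 52143543) rose by 0.67 (SE 0.13, adjusted p = 0.00443), from 28.8, 17.4 and 30.5 to 50.9 and 34.7 CPM in cTreg and from 17.2, 18.1 and 14.4 to 26.0 and 25.6 in eTreg cells. A Cd3d region (chromosome 9, 44985796 to 44986892) rose by 0.38 (SE 0.08, adjusted p = 0.00603), from 44.3, 39.7 and 45.4 to 55.8 and 53.1 CPM and from 47.2, 42.8 and 38.2 to 56.1 and 59.8. With a Ptpn22 region, these were the 3 of the 18 calls that held without each library. The 17 genes that TCR signals induce had 1 called region of 174 (0.575%), a rise of 0.74 at Tnfrsf9 (adjusted p = 0.0106, 0.0641 without FntbKO eTreg 1). The difference between these lists was not tested.

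**Figure D4:**
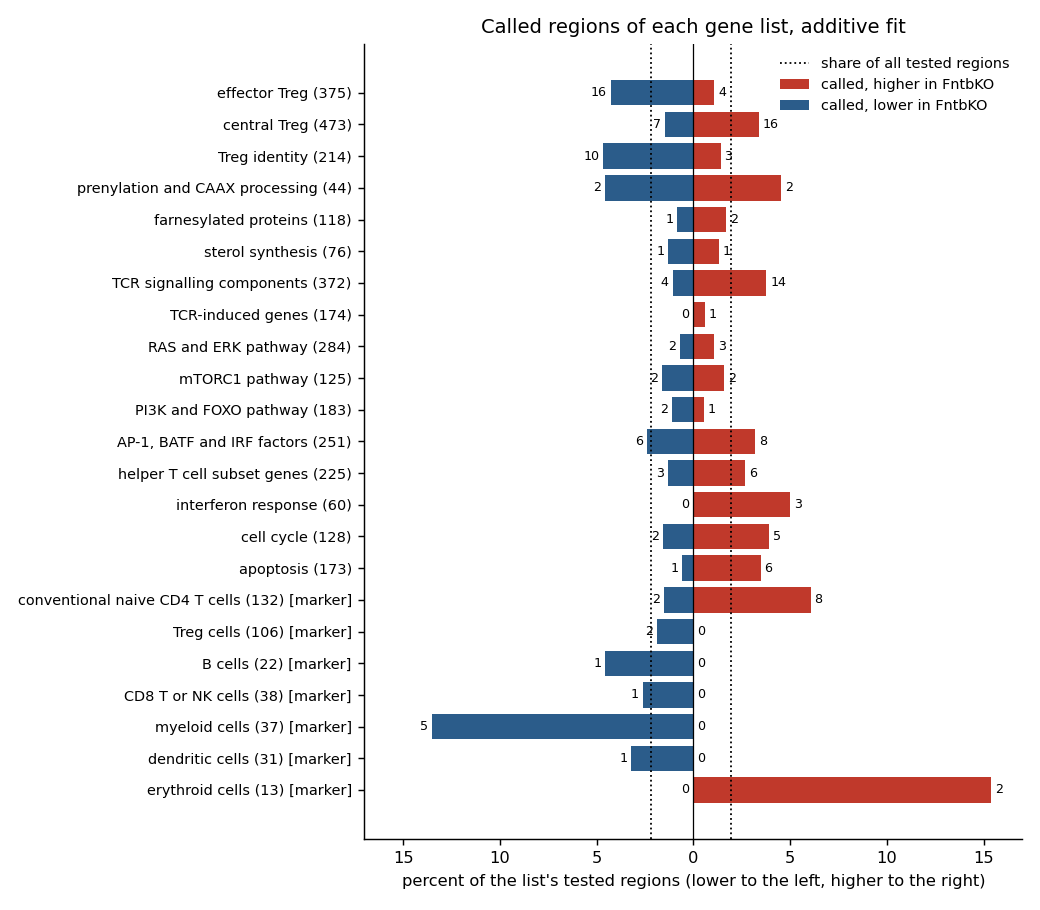
Percent of each list's tested regions (number in brackets) called lower (left, blue) or higher (right, red) in FntbKO cells, with the number called at each bar and the share of all tested regions as dotted lines (2.2% lower, 1.94% higher). Effector Treg and Treg identity genes extend to the left (16 and 10 falls), and central Treg, TCR signalling and naive T cell genes to the right (16, 14 and 8 rises).

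AP-1, BATF and IRF factors had 8 rises and 6 falls among 251 regions (5.58%, against 4.14% of all regions), with a median of 0.17. They include the Bach2 and Maf regions above, and 2 rises at Jun. Of these 14 calls 2 held without each library. Genes of helper T cell subsets had 6 rises and 3 falls among 225 (4.00%). A region 2.29 kb from Il4, the type 2 cytokine (chromosome 11, 53609620 to 53610168), fell by 1.25 (SE 0.24, adjusted p = 0.00245) and held without each library, with 5.03, 7.57 and 5.28 against 2.46 and 2.98 CPM in cTreg and 7.95, 8.57 and 12.9 against 2.40 and 4.53 in eTreg cells. Falls at Il17a (-0.89, adjusted p = 0.00918) and Eomes (-1.17, adjusted p = 0.0126) were lost without FntbKO eTreg 2 (adjusted p = 0.0625 and 0.0806), the latter also without FntbKO cTreg 2. A region of Il12rb2, a chain of the IL-12 receptor, rose by 0.88 (SE 0.18, adjusted p = 0.00484) and held, and 2 regions each rose at Stat4 and Bcl6.

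Interferon response genes had 3 rises and 0 falls among 60 regions (5%, against 4.14% of all regions). All 3 rises were at 1 gene, and the other 16 measured genes of this list had no call. Cell cycle genes had 5 rises and 2 falls among 128 (5.47%). A region 19.2 kb from Mki67, the proliferation marker (chromosome 7, 135735624 to 135736135), fell by 0.78 (SE 0.10, adjusted p = 1.66e-05), from 64.5, 68.3 and 78.3 to 40.8 and 38.4 CPM in cTreg and from 62.6, 59.4 and 82.6 to 47.1 and 36.0 in eTreg cells, without overlap and without losing the call in any leave-out. The rises were at Cdk6 (3), a kinase of cell cycle entry, Ccne1 and the inhibitor gene Cdkn1b, and the other fall at Ccnd3. Apoptosis genes had 6 rises and 1 fall among 173 (4.05%). The region over the start of Bbc3, the death protein PUMA, rose by 0.59 (SE 0.12, adjusted p = 0.00434) and held, from 23.3, 14.3 and 18.9 to 28.2 and 29.2 CPM and from 21.2, 17 and 18.8 to 26.4 and 29.8. Mcl1 (2), Bcl2, Bcl2a1b and Fasl rose and Pmaip1 fell. Of the 7 apoptosis calls only that of Bbc3 held without each library.

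Lists of pathways that involve farnesylated proteins are given by their counts, beside 4.14% called over all regions. RAS and ERK genes had 3 rises and 2 falls among 284 regions (1.76%), at Rasgrp1, Rasa3 and Araf and at Sos1 and Spred2, and none held without each library. The mTORC1 list had 2 rises and 2 falls among 125 (3.20%), and the PI3K and FOXO list 1 rise and 2 falls among 183 (1.64%), none of which held. Genes of farnesylated proteins had 2 rises and 1 fall among 118 (2.54%). Of these, a region inside Cenpe, a kinetochore motor (chromosome 3, 135249876 to 135250344), rose by 1.08 (SE 0.21, adjusted p = 0.00307) and held, and one inside Lmnb1, lamin B1, fell by 0.65 (adjusted p = 0.0213), lost without any of 3 libraries (adjusted p up to 0.0886). The prenylation list, beside Fntb, had 1 rise at Chm (adjusted p = 0.045), lost without any of 7 libraries (adjusted p up to 0.147). Sterol synthesis genes had 1 rise and 1 fall among 76 regions (2.63%).

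Markers of other cells were also called. Myeloid genes had 5 falls of 37 regions (13.5%, against 4.14% of all regions), at Cebpa and Itgam (2 each) and Cebpb. The other 3 of the 6 measured myeloid genes, Spi1 among them, had no call. The region over the start of Cebpa, a myeloid transcription factor (chromosome 7, 35118925 to 35119517), fell by 0.95 (SE 0.18, adjusted p = 0.00293), from 8.38, 9.29 and 8.66 to 3.28 and 5.12 CPM in cTreg and from 22.5, 12.5 and 17.1 to 10.0 and 8.66 in eTreg cells. It was among the 3 of the 5 calls that held without each library. B cell genes had 1 fall of 22 (4.55%), at Ebf1, with a list median of -0.37. CD8 T or NK genes had 1 fall of 38 (2.63%, Eomes) and dendritic cell genes 1 fall of 31 (3.23%, Zbtb46). Treg markers had 2 falls of 106 (1.89%) and erythroid genes 2 rises of 13 (15.4%).

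A part of the called regions lay in runs, which also hold regions that were not called. Runs of at least 3 called regions with gaps of up to 100 kb numbered 248 and held 1026 of the 3153 called regions, 88 runs with falls only, 90 with rises only and 70 with both. The longest (chromosome 11, 109193236 to 109860959, from Rgs9 past Gna13, Amz2, Arsg and Prkar1a to 1700012B07Rik) had 26 falls among 78 tested regions, of which 74 were below 0, with a median of -0.56 over all of them and -0.66 over the called ones. A second on the same chromosome (113060975 to 113363088, nearest gene Slc39a11) had 21 falls of 28, with a median of -1.35 over all 28, each of them below 0. In the 500 kb on either side the medians were -0.54 over 16 and -0.37 over 33 tested regions. The Cfap20dc run (chromosome 14, 8458603 to 8666506) had 9 falls of 10, with a median of -2.29 over the 10. With each library left out in turn these runs kept 15 to 32, 17 to 21 and 7 to 9 calls.

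The run at Stk32c, Lrrc27 and Pwwp2b (chromosome 7, 139131619 to 139296029) had 9 falls of 20 tested, all gained by pooling, but kept only 1 without FntbKO cTreg 1 and 1 with correlated libraries. A run at immunoglobulin heavy chain variable segments (chromosome 12, 114909830 to 115208280) held 22 such segments and had 8 falls of 32. The B cell marker sums given above were lower in the same libraries, and their part was not tested. At Ddr1 and its neighbours (chromosome 17, 35638830 to 35764358) 7 regions fell and 1 rose among 19 tested, with a median of -2.48 over these 8 and -0.51 over all 19. A run of 8 rises of 9 tested regions lay on chromosome 18 at Iigp1, an interferon-inducible GTPase, and its neighbours, with a median of 0.91 over the 8 and 0.86 over all 9.

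**Figure D5:**
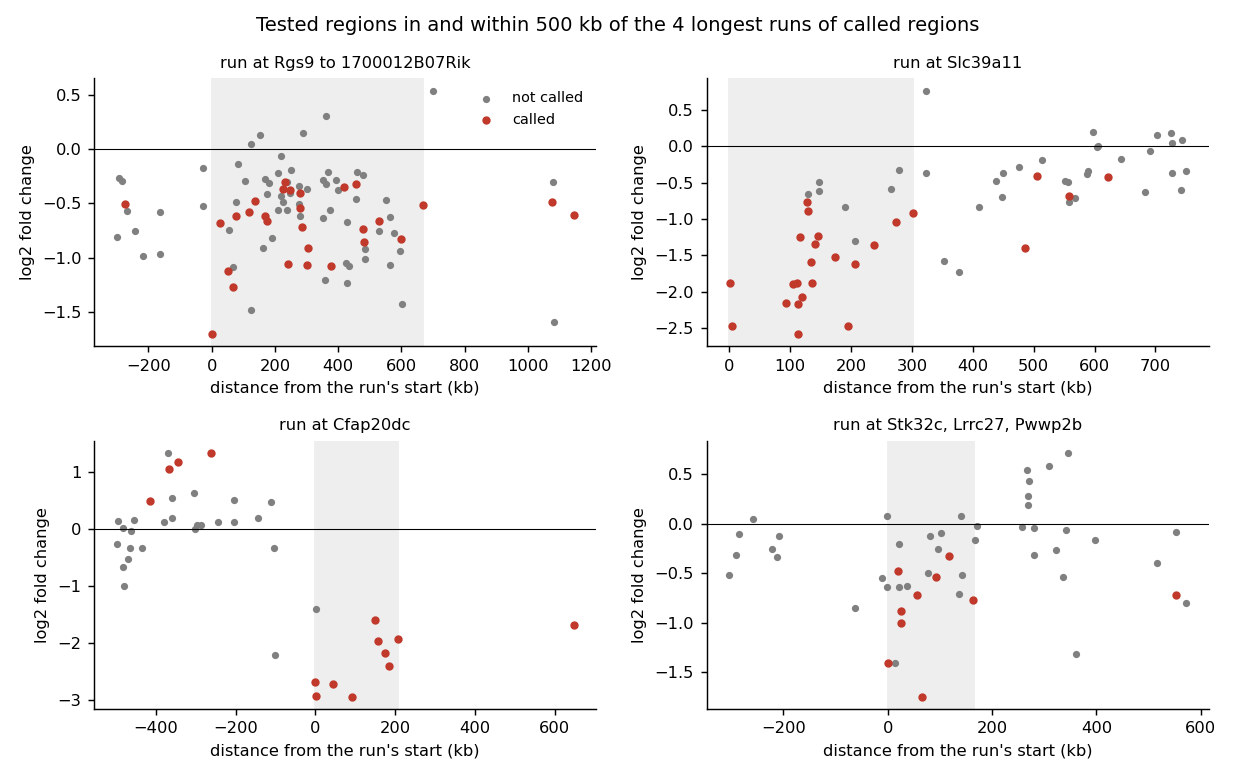
Log2 fold change of each tested region in the additive model (y axis) against its distance from the run's start (x axis, kb), for the 4 runs with most called regions (grey bands) and 500 kb on either side, with called regions in red. In the Slc39a11 run all 28 regions lie below 0, and 9 of the 10 in the Cfap20dc run are called.

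Rises and falls differed in position. Of called rises 55.9% lay inside a gene span and over 2 kb from a start site, against 41.3% of called falls and 46.5% of all tested regions. Start sites were covered by 7.38% of rises, 12.7% of falls and 11.5% of all regions. Gained regions had like shares, with 55.7% and 41.2% inside spans and 8.16% and 13.3% over starts. These shares were not tested, since neighbouring regions are not independent.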

How the data were processed

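Accessibility was measured by ATAC-seq in 10 libraries of sorted mouse Treg cells, 3 WT and 2 FntbKO of each subset. The authors deposited 1 table of raw read counts for 77076 regions. Its regions are on mm10 (GRCm38), per the submitters' processing notes, which name MACS2 2.1.1, bedtools, SAMtools, Trimmomatic 0.36 and Picard 2.9.4. The aligner is not given in the sources used here, nor whether regions were called per library or on pooled reads. Between 66.7% and 79.2% of the counts per library were even numbers, and whether both ends of a fragment were counted is not given in the sources used here. Intervals from counting alone are therefore not given. Library totals (5058328 to 15328775 counts) limit precision at low regions.

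Counts were filtered with filterByExpr, scaled by TMM and tested with edgeR 4.0.16 (robust quasi-likelihood, Benjamini-Hochberg over 76216 regions) in R 4.3.3, with 7 residual degrees of freedom for subset plus genotype and 6 for 1 mean per group. The scripts were tested on simulated data. DESeq2 1.42.0 and limma 3.58.1 were alternatives, beside other scalings and filters, a replicate block and leaving out each library. A region was assigned to the protein-coding gene it overlaps in GRCm38.p6, or to the nearest within 100 kb (94.3% of tested regions). Distances in kb are to the gene span, and a region beside a gene need not act on it.

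Named were the 12 largest rises and falls and the 10 largest gained rises and falls, 1 per gene, among called regions with at least the median CPM and separate genotypes in both subsets. Also named were all regions of Fntb and Foxp3, up to 4 called regions per gene list by smallest p, 1 per gene, and the longest runs. Further regions of Bach2, Ccr7, Il10, Maf, Klrg1, Tigit, Nt5e, Nrp1 and Cblb, and runs tied in length, were added after their values were seen. The genes and lists were chosen with earlier results of these data known. Genes of the sterol synthesis list and some genes of other lists are not reported here by name.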

Additional observations from a re-analysis of the deposited data

How the results depend on the processing

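The 3153 called regions, 2598 gained regions and 1692 gained genes stayed within 1.5 times of these numbers under other scalings, filters on low counts, halved counts, averaged group contrasts, DESeq2 and limma-voom, and no named region reversed under any alternative run. Leaving out each library in turn gave 1595 to 3375 called regions, 1266 to 2799 gained regions and 911 to 1798 gained genes. The lowest numbers came without FntbKO eTreg 2 for regions and without FntbKO cTreg 2 for genes, and fewer libraries also leave fewer degrees of freedom. Without WT cTreg 2 and FntbKO cTreg 1 together, 1662 regions were called, 1116 gained, and 759 genes gained. With replicates 1 and 2 only, these were 1434, 1272 and 934. Of alternatives chosen after seeing the data, limma-voom with correlated libraries of 1 genotype and number gave 1599 gained regions and 1062 gained genes, and counts summed over the subsets by number gave 2084 called regions. The causes were not tested. Deviations of libraries with the same number correlated between -0.11 and 0.33 (median 0.13, against -0.08 for different numbers). The 5 pairs of cTreg and eTreg libraries of 1 genotype and number were all positive, the lowest at 0.06, and since not every pair passed 0.1 the numbers were not taken as pairs. Deviations were taken from group means, so the 2 libraries of a FntbKO group mirror each other. Both FntbKO pairs of 1 number thus hold the same value (0.33), and FntbKO pairs of different numbers its negative (-0.33). The difference between the medians is in part fixed by this construction. With the replicate block 3408 regions were called (2444 of them among the 3153), 2229 gained (1430 of them among the 2598), and 1408 genes gained, and 117 of the 137 named regions that were called held. Of these 137 regions, 56 held without each library and 48 under every alternative. The FntbKO groups have 2 libraries each, which limits single-subset calls and the test of a difference between subsets, and regions with few counts have large errors.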
